A study of Mus musculus with 2 samples.

Results

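The DEAD-box and DEAH-box helicase genes were taken as the protein-coding RefSeq genes of the mouse assembly GRCm38 whose symbol begins with Ddx or Dhx followed by a digit. This gave 53 genes of 21887, with 37 Ddx and 16 Dhx symbols. Their peaks were those that overlapped the gene or lay within 1 kb of it. CUT&Tag, which sequences the DNA cut by a Tn5 transposase brought to chromatin by an antibody, was run on Hepa1-6 cells, a mouse hepatoma line. All cells had been infected overnight with an adenovirus that expresses FLAG-tagged ALKBH5, so both reactions came from infected cells and uninfected cells were not analysed here. The ALKBH5-FLAG reaction and the IgG reaction, whose non-specific antibody gives the assay's background, were each sequenced as 1 library. The labels leave 2 points unsettled: the series text speaks of primary hepatocytes, and the IgG sample carries ALKBH6-FLAG as its treatment tag although its protocol gives the ALKBH5 virus.

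DEAD-box and DEAH-box proteins are ATP-driven enzymes named after the amino acids of a conserved motif. DEAD-box members pry apart short RNA duplexes or clamp RNA, and DEAH-box members move along RNA and pull structures or proteins off it. They act at nearly every step of an RNA's life, from splicing and ribosome assembly to export, translation, decay and the sensing of viral RNA. ALKBH5 is known for removing N6-methyladenosine from RNA, and DDX3X and DDX46 have each been reported to bind it.

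ALKBH5 peaks were listed at 33 of the 53 helicase genes (62.3%, 95% exact interval 47.9 to 75.2), against 39.2% of all protein-coding genes. IgG peaks were listed at 9 of the 53 (17.0%, 8.07 to 29.8), against 10.8% of all genes. An ALKBH5 peak without any IgG peak was found at 25 helicase genes (47.2%, 33.3 to 61.4), against 30.1% of all genes. The helicase share was the higher in both lists. For IgG the 10.8% of all genes lies within the helicase interval, which is wide because it rests on 9 genes. Whether the excess was particular to ALKBH5 was not tested. The DEAH-box genes carried an ALKBH5 peak in 12 of 16 cases (75%, 47.6 to 92.7) and the DEAD-box genes in 21 of 37 (56.8%, 39.5 to 72.9), and these intervals overlapped. With 1 library per reaction no test between them was made, and the intervals cover counting error over genes only.

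**Figure D1:**
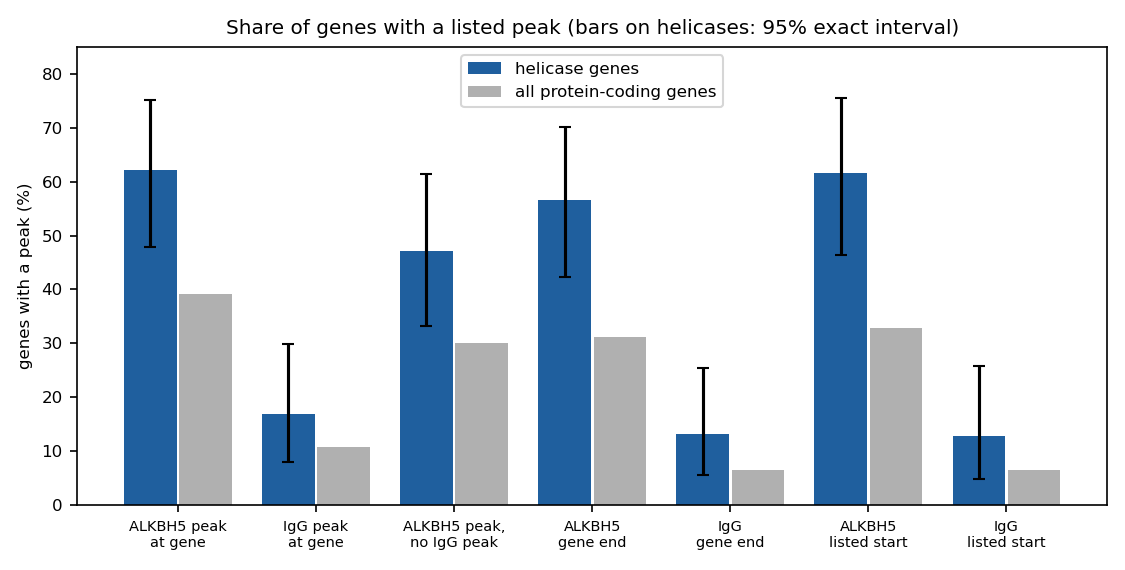
Share of genes (y axis, %) with a listed peak for 53 helicase genes (blue, 47 for listed starts, lines are 95% exact intervals) and for all protein-coding genes (grey). The helicase bar is the higher in all 7 pairs, at 62.3% and 39.2% for an ALKBH5 peak at the gene and at 17.0% and 10.8% for an IgG peak. In the IgG pairs, which rest on few helicase genes, the share of all genes lies within the helicase interval.

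The whole lists held 12333 ALKBH5 peaks and 3378 IgG peaks, with median pileups of 9 and 5 fragments. Pileup is the number of fragments stacked at the summit, and fold enrichment is pileup over local background, each with 1 added. Both values are the authors' own and describe peaks within 1 list. The depth of both libraries is unknown, since the lists give no read totals, and a gene without a peak may hold signal below the calling threshold. The labelled cell type could be checked only through peaks: 4 of 22 hepatocyte identity genes had an ALKBH5 peak (18.2%, 5.19 to 40.3), against 39.2% of all genes, which lies within that interval. They were Afp, Apoa2, Foxa2 and Foxa3, while Alb, Ttr and Hnf4a had none in either list. A listed peak does not measure expression, so the cell type was neither shown nor contradicted by this count.

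The helicase share was the higher in each of 4 classes of gene length, which held 7 to 19 helicases. No intervals were computed for these classes, and the part of gene length was not tested. Helicase genes ran from 1871 to 149717 bp with a median of 22833 bp. Among genes of 10 to 20 kb, 11 of 15 helicases (73.3%) had an ALKBH5 peak, against 43.3% of all genes of that length. The shares were 57.9% of 19 helicases and 47.1% of all genes at 20 to 40 kb, 66.7% of 12 helicases and 52.3% of all genes at 40 kb or more, and 42.9% of 7 helicases and 23.4% of all genes under 10 kb.

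The sequences below are promoters of helicase genes from the RefSeq table for GRCm38.p6, each the 200 bases before a listed transcription start, read along the gene. The table held promoters for 47 of the 53 genes, and Ddx39a, Dhx38, Ddx6, Dhx58, Ddx23 and Ddx11 had no entry. Shown first are the promoters under the 4 peaks of highest fold at a listed start and that of Ddx46. Capitals mark matches, on either strand, to the GC box (GGGCGG), the CCAAT box (CCAAT), the TATA box (TATAAA), an ETS site (CCGGAAG), a cAMP response element (TGACGTCA, its own reverse complement) or the NRF1 palindrome of 10 bases. None of the 6 motifs contains another.

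Ddx59, chr1:136415071-136415270, plus strand: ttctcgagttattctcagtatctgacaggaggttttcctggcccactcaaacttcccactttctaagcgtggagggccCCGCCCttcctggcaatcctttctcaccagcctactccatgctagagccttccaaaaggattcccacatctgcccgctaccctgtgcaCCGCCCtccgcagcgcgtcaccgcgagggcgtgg

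Ddx42, chr11:106216726-106216925, plus strand: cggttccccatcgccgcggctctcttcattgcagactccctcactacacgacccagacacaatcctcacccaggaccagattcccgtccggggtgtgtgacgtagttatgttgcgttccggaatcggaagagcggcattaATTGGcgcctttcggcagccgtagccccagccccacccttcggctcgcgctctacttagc

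Ddx50, chr10:62651219-62651418, minus strand: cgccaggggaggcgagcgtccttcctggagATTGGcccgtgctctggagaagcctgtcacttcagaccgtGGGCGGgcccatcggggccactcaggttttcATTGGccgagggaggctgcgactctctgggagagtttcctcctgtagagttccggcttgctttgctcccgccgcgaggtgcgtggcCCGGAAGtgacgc

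Ddx3x, chrX:13280822-13281021, plus strand: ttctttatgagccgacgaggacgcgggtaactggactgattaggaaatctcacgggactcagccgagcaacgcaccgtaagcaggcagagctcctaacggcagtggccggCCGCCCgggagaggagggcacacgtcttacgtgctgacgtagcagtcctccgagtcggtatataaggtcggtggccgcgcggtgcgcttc

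Ddx46, chr13:55634799-55634998, plus strand: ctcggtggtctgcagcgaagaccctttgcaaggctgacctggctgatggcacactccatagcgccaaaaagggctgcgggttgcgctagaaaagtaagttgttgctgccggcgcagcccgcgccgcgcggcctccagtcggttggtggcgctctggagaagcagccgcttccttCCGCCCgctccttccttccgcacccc

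The next 3 promoters had no ALKBH5 peak. Dhx36 and Ddx51 show the cAMP response element that was absent from helicase promoters with a peak, and Ddx4 is a germ line gene with a CpG-rich promoter.

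Dhx36, chr3:62506989-62507188, minus strand: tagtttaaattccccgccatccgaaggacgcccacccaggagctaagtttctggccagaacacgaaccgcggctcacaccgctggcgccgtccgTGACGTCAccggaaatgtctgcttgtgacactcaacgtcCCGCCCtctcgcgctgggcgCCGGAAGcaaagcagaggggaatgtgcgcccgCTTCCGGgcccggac

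Ddx51, chr5:110653251-110653450, plus strand: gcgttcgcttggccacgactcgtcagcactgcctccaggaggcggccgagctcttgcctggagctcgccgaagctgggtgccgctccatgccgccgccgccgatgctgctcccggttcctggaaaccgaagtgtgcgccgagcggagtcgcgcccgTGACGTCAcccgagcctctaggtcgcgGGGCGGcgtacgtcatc

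Ddx4, chr13:112652311-112652510, minus strand: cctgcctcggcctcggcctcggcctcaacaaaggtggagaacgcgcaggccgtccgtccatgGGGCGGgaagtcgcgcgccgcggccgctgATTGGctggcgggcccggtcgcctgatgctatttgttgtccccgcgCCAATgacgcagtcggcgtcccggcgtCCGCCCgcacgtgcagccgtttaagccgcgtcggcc

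The tallest ALKBH5 peak of the family lay over Ddx42, a partner of the U2 snRNP in early spliceosome assembly. It spanned chr11:106216224-106217407, 1184 bp, with a fold of 10.5 at a pileup of 36. An IgG peak with a fold of 6.84 at a pileup of 9 overlapped its upstream edge. The ALKBH5 summit lay 68 bp upstream of the listed Ddx42 start and 491 bp upstream of the start of Ccdc47, which is read the other way. The IgG summit lay 647 bp upstream of Ddx42 and 88 bp inside Ccdc47, so the 2 summits stood at different genes of this divergent pair.

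All 14 genes of the splicing list, which holds Ddx and Dhx genes only, had an ALKBH5 peak within 1 kb of a gene end, against 31.1% of all genes, and 4 of them also had an IgG peak, against 10.8% of all genes. Their strongest peaks ran from a fold of 3.47 to 10.5 with a median of 6.13. The list was drawn up with earlier results of these data known, and it includes Dhx32 and Dhx40, whose roles are less settled. At a −log10 q of 5 or more, 20 helicase genes of all roles kept an ALKBH5 peak (37.7%, 24.8 to 52.1), against 23.7% of all genes. At a fold of 5 or more 23 did (43.4%, 29.8 to 57.7), against 31.4%, which lies within that interval.

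Dhx8, which releases finished mRNA from the spliceosome, had 2 ALKBH5 peaks and no IgG peak. The peak at its start, chr11:101732759-101733086, had a pileup of 12, a fold of 7.47 and its summit 1 bp before the listed start. The other, 7305 bp inside the gene, was the stronger by fold, at 8.22 with a pileup of 11. Dhx35, Dhx38 and Dhx16, further DEAH-box proteins of the spliceosome, had start or end peaks with folds of 6.88, 6.82 and 6.30. Dhx15, which takes the spliceosome apart, had a weaker peak, with a fold of 5.41 at a pileup of 7. The Dhx38 peak lay 167 bp upstream of the start of Txnl4b, so it may belong to either gene. Dhx16 had an IgG peak of pileup 4 and fold 3.96 as well, 652 bp upstream of its start and without a base in common with the ALKBH5 peak.

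The paralogs Ddx5 and Ddx17, splicing helicases that also act as transcription coregulators, both carried a start peak. At Ddx5 the ALKBH5 peak chr11:106788319-106789455 had a fold of 7.83 at a pileup of 33, and it covered all 3 listed starts. An IgG peak of 527 bp with a fold of 6.74 at a pileup of 9 lay inside it, and the start of the divergent gene Cep95 was 296 bp from the ALKBH5 summit. A further ALKBH5 peak past the far end of Ddx5, with a fold of 5.68 at a pileup of 14, lay 319 bp upstream of the start of Polg2. At Ddx17 the ALKBH5 peak had a pileup of 9, a fold of 5.95 and a summit 42 bp before the upstream listed start, and no IgG peak was listed.

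Ddx46, which helps seat the U2 snRNP on the branch site, had an ALKBH5 peak with a fold of 4.86 at a pileup of 6, its summit 145 bp past the listed start, and no IgG peak. Ddx41 and Ddx23, both found in the spliceosome, had folds of 6.38 and 5.72 with pileups of 11 and 18. Ddx39b, which acts in splicing and mRNA export, had an ALKBH5 peak with a fold of 4.86 at a pileup of 13 at its start. Its IgG peak, with a pileup of 5 and a −log10 q of 3.35, stood at the other end of the gene, 11549 bp from the start. The weakest ALKBH5 peak of the family was that of Dhx40, with a fold of 3.47 at a pileup of 4.

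**Figure D2:**
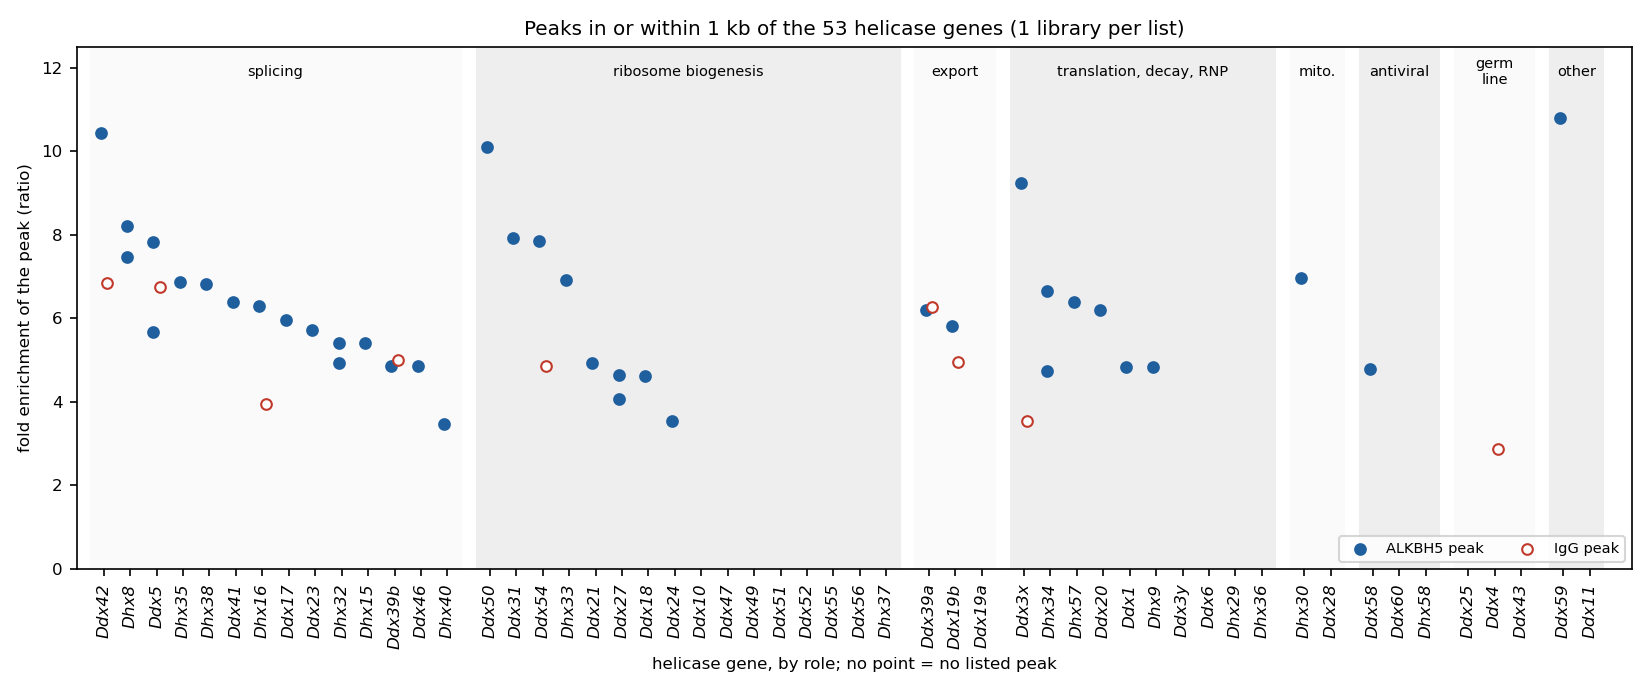
Fold enrichment (y axis, ratio) of each ALKBH5 peak (filled blue) and IgG peak (open red) in or within 1 kb of the 53 helicase genes, grouped by role and ordered by the strongest ALKBH5 peak. All 14 splicing genes have a blue point, 8 of 16 ribosome biogenesis genes do, and none of the 3 germ line genes does. Of all protein-coding genes 39.2% have an ALKBH5 peak, which lies within the exact intervals of the ribosome biogenesis and germ line groups. The role lists were drawn up with earlier results of these data known.

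Of 16 ribosome biogenesis helicases, 8 had an ALKBH5 peak (50%, 24.7 to 75.3), against 39.2% of all genes, a share within that interval. An IgG peak was listed at 1 of the 16, against 10.8% of all genes. The strongest ALKBH5 peaks of the 8 had a median fold of 5.93. Ddx50, a nucleolar paralog of Ddx21, was the strongest, with a fold of 10.1 at a pileup of 20 at chr10:62650947-62651628. Its summit lay 7487 bp inside the annotated gene but only 59 bp upstream of a listed start. Ddx21, whose annotated span ends 13493 bp away from that of Ddx50, had a weaker peak, with a fold of 4.94 at a pileup of 7. Neither gene had an IgG peak.

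Ddx31 had its only ALKBH5 peak deep in the gene, 42172 bp past the start, with a fold of 7.94 at a pileup of 9. Ddx54 had a peak with a fold of 7.86 at a pileup of 24 that covered both its own start and that of the divergent gene Rita1, with its summit between them, and an IgG peak of pileup 6 and fold 4.86 overlapped it. Dhx33 had a start peak with a fold of 6.91. Ddx27, Ddx18 and Ddx24 had folds of 4.65, 4.62 and 3.54 at best, the last with a pileup of 3. No peak of either list was found at Ddx10, Ddx47, Ddx49, Ddx51, Ddx52, Ddx55, Ddx56 or Dhx37.

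Of 10 helicases of translation, decay and other RNA-protein complexes, 6 had an ALKBH5 peak (60%, 26.2 to 87.8), against 39.2% of all genes, which lies within that interval. An IgG peak was listed at 1 of the 10, against 10.8% of all genes. Ddx3x, a translation initiation helicase encoded on the X chromosome, had the strongest, with a fold of 9.24 at a pileup of 16 at chrX:13280698-13281097. Its summit lay 457 bp inside the annotated span of the gene and 69 bp upstream of the listed start. An IgG peak with a fold of 3.55 at a pileup of 3 began within the ALKBH5 peak and had its summit 165 bp past the start. Its Y-linked paralog Ddx3y had no peak in either list.

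Dhx34, a nonsense-mediated decay factor, had a start peak with a fold of 6.67 at a pileup of 9 and an inner peak with a fold of 4.74. Dhx57 had a peak with a fold of 6.40 whose summit was nearer to the start of the oppositely read gene Morn2, at 54 bp, than to its own, at 318 bp. Ddx20, a member of the SMN complex, had a fold of 6.19. Dhx9, a helicase of RNA duplexes and R-loops, and Ddx1, of the tRNA ligase complex, each had a fold of 4.84, with pileups of 8 and 5. Ddx6, the decapping and P-body helicase, Dhx29, which aids ribosome scanning, and Dhx36, which unwinds G-quadruplexes, had no peak in either list.

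The nuclear pore export helicases Ddx19a and Ddx19b are closely related neighbours 5362 bp apart. Read placement between them may be uncertain and was not checked. Ddx19b had an ALKBH5 peak with a fold of 5.81 at a pileup of 9, and an IgG peak with a fold of 4.96 at a pileup of 5 overlapped it. Its summit lay 4076 bp inside the annotated gene and 95 bp past a listed start. Ddx19a had no peak. At Ddx39a, a paralog of Ddx39b, the ALKBH5 peak had a fold of 6.19 at a pileup of 13 and the overlapping IgG peak a pileup of 7 and a fold of 6.29, so the folds of both lists were close here.

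Among antiviral sensors, Ddx58, which encodes RIG-I, had an ALKBH5 peak with a fold of 4.79 at a pileup of 6. Its summit lay 617 bp past the start, the farthest among the ALKBH5 start peaks of the family. Dhx58, which encodes LGP2, and Ddx60 had no peak in either list. Of the mitochondrial ribosome helicases, Dhx30 had a fold of 6.96 with a pileup of 10 and Ddx28 had no peak. The highest ALKBH5 fold of the family was at Ddx59, a gene linked in humans to a developmental syndrome of cilia. Its peak, chr1:136415098-136415584, had a pileup of 18, a fold of 10.8 and a summit 34 bp upstream of the start, and no IgG peak was listed. Ddx11, a DNA helicase of sister chromatid cohesion, had none.

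None of the 3 germ line helicase genes had an ALKBH5 peak, which allows a share of up to 70.8% by the exact interval and so takes in the 39.2% of all genes. They were Ddx4, the mouse Vasa gene, Ddx25, a testis helicase, and Ddx43. Ddx4 held the only IgG peak of the family without an ALKBH5 peak at the same gene, 14601 bp past the listed start, with a fold of 2.88 at a pileup of 2. In all, 19 helicase genes had no peak in either list and 8 had peaks in both. The matching counts over all genes were not made. Of all genes, 39.2% had an ALKBH5 peak, 10.8% an IgG peak and 30.1% an ALKBH5 peak without an IgG peak.

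Strand information in the promoter table placed most ALKBH5 peaks at transcription starts. Any part of an ALKBH5 peak lay within 1 kb of a listed start at 29 of 47 helicase genes (61.7%, 46.4 to 75.5), against 32.9% of genes with a listed start. IgG peaks did so at 6 of 47 (12.8%, 4.83 to 25.7), against 6.59%, which lies within that interval. An ALKBH5 peak at either annotated end of the gene was found at 30 of 53 genes (56.6%, 42.3 to 70.2), against 31.1% of all genes. For IgG the count was 7 of 53 (13.2%, 5.48 to 25.3), against 6.55%, which also lies within the interval. Among the 41 helicase genes of 10 kb or more with a known strand, 24 had an ALKBH5 peak within 1 kb of the 5′ end (58.5%) and 0 within 1 kb of the 3′ end, which allows a share of up to 8.6% by the exact interval. Over all 11080 such genes the shares were 36.1% and 1.89%. The ALKBH5 peak past the far end of Ddx5 is not among these, since that gene spans 8831 bp. For IgG, 4 of the 41 helicase genes had a 5′ end peak (9.76%) and 1 a 3′ end peak (2.44%), against 7.16% and 0.46% of all such genes.

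Of the 38 ALKBH5 peaks at helicase genes, 31 lay at a listed start, 3 inside the gene, 1 at the other end, and 3 at genes without a listed start. The 3 inner peaks were those of Ddx31, Dhx34 and Dhx8. Peaks at Ddx50, Ddx19b and Dhx32 that fell well inside the annotated span were near inner listed starts, the Dhx32 peak 346 bp past such a start and 434 bp upstream of the start of Fank1. The median distance from summit to start was 95 bp for the 31 helicase peaks, against 155 bp for the 6199 pairs of a peak and a gene start over all genes. Summits lay within 100 bp of the start in 51.6% of the helicase peaks and in 38.6% of all pairs, and 22 of the 31 peaks covered a start. At 5 of the 31, the start of another coding gene also lay within 1 kb of the summit. The counts of peaks by place, by a covered start and by a nearby start of another gene were not made for ALKBH5 peaks at all genes.

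**Figure D3:**
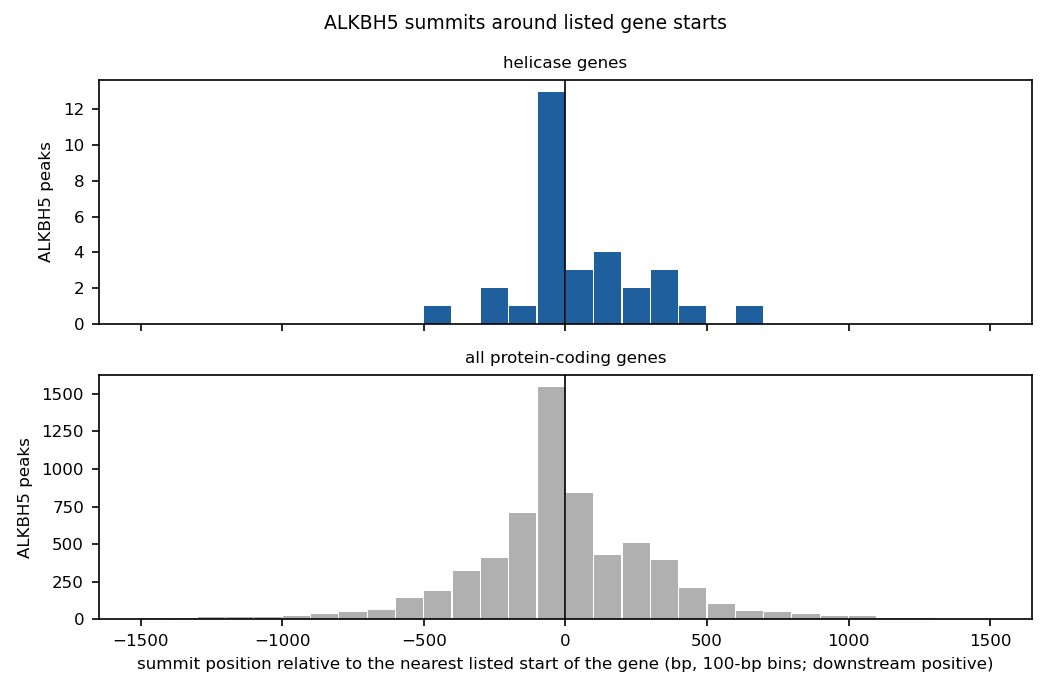
Number of ALKBH5 peaks (y axis) by summit position relative to the nearest listed start of the gene (x axis, bp in 100-bp bins, downstream positive), for helicase genes (top) and all protein-coding genes (bottom). In both panels the tallest bin is the 100 bp just upstream of the start, with 13 of 31 helicase peaks in it.

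The values of the helicase peaks resembled those of peaks at genes in general. Their median fold was 6.07 (range 3.47 to 10.8), against 5.75 for the 9242 ALKBH5 peaks at protein-coding genes. The median pileup was 10.5 for helicase peaks and 9 for all of these, and the median width was 476.5 bp for helicase peaks and 417 bp for all. The share that overlapped an IgG peak was 15.8% (6 of 38), against 15.2%. The 6 overlapping peaks, at Ddx42, Ddx5, Ddx54, Ddx3x, Ddx39a and Ddx19b, had a median pileup of 20 and a median fold of 7.85, and the 32 others had 9.5 and 5.70. The 9 IgG peaks had a median pileup of 5 and a median fold of 4.96, the same medians as the 2194 IgG peaks at protein-coding genes.

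No ALKBH5 peak lay close to the 1 kb limit of the rule. The outermost peak inside it was 246 bp from Dhx32, with a fold of 5.42, and the nearest beyond it was 1699 bp from Ddx21, with a fold of 6.10. A peak 1909 bp from Ddx19b had a fold of 7.69 at a pileup of 19. For IgG the outermost peak inside was that of Dhx16, at 525 bp, and the nearest beyond lay 2126 bp from Ddx19b.

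Helicase promoters were rich in CpG dinucleotides. The 58 listed promoter windows of helicase genes, each of 300 bases from 250 before the start, had a median of 24 CpG, against 13 in all 21263 promoter windows. An ALKBH5 peak overlapped 29 of the 58 (50%), against 26.1% of all windows, and an IgG peak overlapped 10.3%, against 4.49%. These counts and the CpG classes are of windows, and windows of 1 gene can overlap. The 58 windows belonged to 47 genes and the 29 with an ALKBH5 peak to 25. Of the 6 windows with an IgG peak, 3 were those of Ddx5. The share of all windows with an ALKBH5 peak was 3.10% at 0 to 9 CpG, 32.8% at 10 to 19, 51.3% at 20 to 29 and 48.3% at 30 or more. For helicase windows the shares were 0% of 5 (up to 52.2% by the exact interval), 30.8% of 13, 70.4% of 27 and 46.2% of 13. The helicase share exceeded the share of all windows in 1 of these 4 classes, which hold few helicase windows. The part of CpG count in the helicase excess was not tested. Ddx4 and Ddx43, with 38 and 30 CpG, and Ddx25, with 41, had no ALKBH5 peak.

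**Figure D4:**
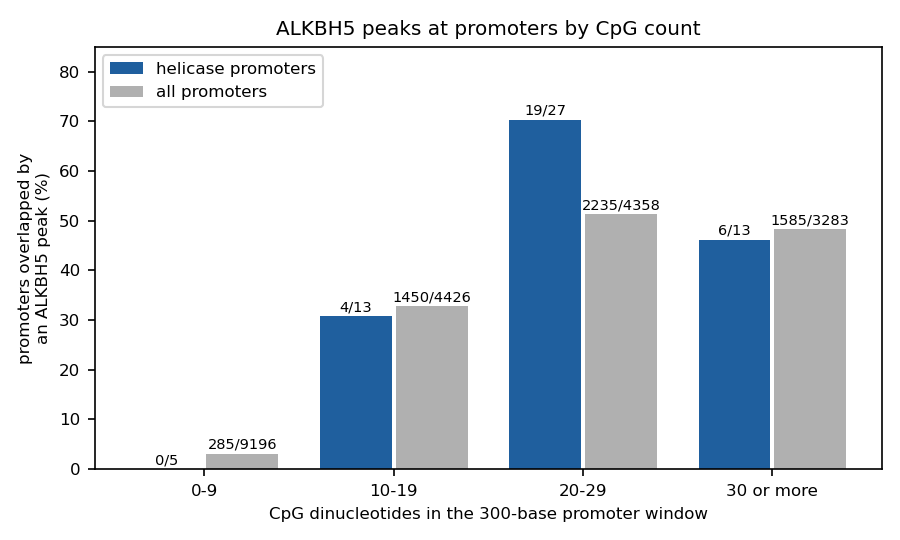
Share of promoter windows overlapped by an ALKBH5 peak (y axis, %) by CpG dinucleotides per 300-base window (x axis), for helicase promoters (blue) and all promoters (grey), with counts above the bars. The helicase bar is the higher at 20 to 29 CpG, with 70.4% and 51.3%.

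The windows were also searched for the 6 motifs given above. The ETS letters were found in 21 of 58 helicase windows (36.2%), belonging to 19 genes, against 11.6% of all windows. The NRF1 palindrome was found in 3 windows (5.17%), which belonged to 2 genes since 2 windows of Dhx34 overlap, against 1.33%. The cAMP response element was found in 6 windows (10.3%), against 2.23%. The GC box stood in 58.6% of helicase windows and 46.2% of all windows, the CCAAT box in 44.8% and 38.2%, and the TATA box in 10.3% and 12.6%. These are matches of letters and not shown sites. The ETS, NRF1, cAMP response element and GC box letters each hold a CpG, and helicase windows were rich in CpG. The shares were not compared at equal CpG count.

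The 6 windows with a cAMP response element belonged to Dhx36, Ddx49, Ddx51, Ddx28 and Ddx19a, with 2 overlapping windows at Ddx49, and 0 of the 6 had an ALKBH5 peak, which allows a share of up to 45.9% by the exact interval with the 6 taken as separate. Over all promoters, 205 of 475 windows with these letters had one, and their share of 43.2% lies within that limit. The ETS letters stood in 13 of 29 helicase windows with an ALKBH5 peak and in 8 of 29 without. These belonged to 12 and 7 genes since Dhx34 and Ddx49 each have 2 overlapping windows. Of the 21 helicase windows with the ETS letters, 61.9% thus had an ALKBH5 peak. Over all promoters, 1325 of 2459 windows with these letters had one (53.9%), and the difference was not tested. In Ddx50 and Dhx36, shown above, the ETS letters lie 13 and 15 bases before the start at their nearest. The first had a peak while the other did not.

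Helicases of related families and proteins that drive DEAD-box and DEAH-box enzymes were set beside the family. Of 22 related RNA helicases under other names, 13 had an ALKBH5 peak (59.1%, 36.4 to 79.3), against 39.2% of all genes, which lies within that interval, and 1 had an IgG peak, against 10.8% of all genes. Ascc3, a helicase of stalled ribosomes and DNA repair, had a fold of 9.62, and Snrnp200, which unwinds U4 from U6 RNA, 6.79. The DEAD-box genes Eif4a2 and Eif4a1, of translation initiation, and Eif4a3, of the exon junction complex, had folds of 6.73, 4.93 and 5.50. Mtrex, Aqr, Dicer1 and Ifih1, which encodes the sensor MDA5, had none.

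Of 26 cofactor genes, among them G-patch proteins that activate DEAH-box helicases and MIF4G proteins that hold DEAD-box helicases, 18 had an ALKBH5 peak (69.2%, 48.2 to 85.7), against 39.2% of all genes, and 2 had an IgG peak, against 10.8% of all genes. Casc3, the exon junction partner of Eif4a3, had the highest fold, 11.7 with a pileup of 28, and an IgG peak with a fold of 7.44. Gpatch11 had a fold of 8.52, and Cnot1, the scaffold that activates DDX6, had 6.38, while Ddx6 itself had no peak. Gle1, which activates the export helicases at the nuclear pore, had 5.97. Gpkow, Pinx1 and Tfip11 had no peak in either list.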

How the data were processed

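Peak lists of 1 ALKBH5-FLAG and 1 IgG CUT&Tag library from infected Hepa1-6 cells were used as deposited. Build GRCm38 (mm10) and the tools MACS2, Bowtie2 2.2.9, R 3.4.1 and SAMtools 1.3.1 were used by the authors, per the submitters' processing notes, which hold no settings here. The deposited pileup is a coverage signal, the deposited fold enrichment is a ratio, and the deposited −log10 p and −log10 q columns, which had lost their headers, were identified by their place in the MACS2 layout. Every q-value was at most 0.0494 (ALKBH5) or 0.0455 (IgG).

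Genes, strands and promoters came from RefSeq tables of GRCm38.p6, chromosomes 1 to 19, X and Y. Overlaps needed 1 bp and were computed in Python 3.11.15 with pandas 2.3.3, after a check on simulated intervals. Exact intervals are Clopper-Pearson (scipy 1.17.1). A gene-end peak lies within 1 kb of either annotated end, and a start peak within 1 kb of a listed start. Motifs were searched on both strands.

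The members, role lists and comparison lists were chosen with earlier results of these data known. Of the listed symbols, 22 of 23 related helicases and all 26 cofactors, 30 DNA helicases and related genes, and 22 hepatocyte genes matched. Named are 10 preset genes, the 2 members of highest ALKBH5 fold per role, those with an IgG peak and the extremes; others are summarised or added to complete a role. Listed starts, CpG classes and motif overlaps with peaks were added after the data were seen. Windows, thresholds and shared peaks were varied.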

Additional observations from a re-analysis of the deposited data

How the results depend on the processing

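Of 34 alternative values, 25 stayed within 1.5 times the reported value and 9 moved further. At a −log10 q of 5 or more, 20 helicase genes had an ALKBH5 peak and 18 an ALKBH5 gene-end peak, 3 had an IgG peak and 3 an IgG gene-end peak, and 16 had an ALKBH5 peak at a listed start. At a fold of 5 or more, 4 had an IgG peak, 4 an IgG gene-end peak and 19 an ALKBH5 peak at a listed start. With a window of 0, 0 genes had an IgG gene-end peak. These alternatives keep fewer peaks or a narrower window by construction. The helicase share exceeded that of all genes in 31 of 32 alternatives, the exception being the IgG gene-end peaks with a window of 0 (1.89% of all genes). These alternatives reuse the same lists and include the IgG counts. The count of genes with an ALKBH5 peak sharing no base with IgG (28, 52.8%, against 33.7%) enters under 2 results. Without peaks near the starts of 2 or more coding genes, an alternative added after the data were seen, 25 of 47 helicase genes kept a start peak (53.2%), against 25.7% of genes with a listed start. No paired analysis was possible because each reaction had 1 library. Unknown read depth limits every statement that a gene lacked a peak.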

Other observations

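DNA helicases, which unwind DNA in replication and repair, were looked at in a list that also held related genes such as Hells, Xrcc5 and Xrcc6. Of its 30 genes, 22 had an ALKBH5 peak (73.3%, 95% exact interval 54.1 to 87.7), against 39.2% of all protein-coding genes. An IgG peak was listed at 6, against 10.8%. The highest folds were at Mcm6, of the replicative helicase, with 8.25 and a pileup of 15, at Fancm, which remodels stalled forks, with 7.69, and at Brip1, a partner of BRCA1, with 7.39. Mcm7 had a pileup of 24 and a fold of 7.23 for ALKBH5 and a fold of 6.22 for IgG. Recql, Recql5 and Hells had an IgG peak and no ALKBH5 peak, with IgG folds of 10.05, 2.88 and 6.98. Ercc2, Ercc3, Mcm2, Mcm5 and Pif1 had no peak in either list. The difference between the lists was not tested.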
